A study of Homo sapiens with 4 samples.

Results

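The comparison described here sets AC16 cells after 360 min in 10 nM doxorubicin against untreated cells at 0 min. Its members are 2 libraries, chosen by their labelled time, of the 4 in the series. AC16 is an established human line, obtained by fusion of adult ventricular heart cells and a transformed fibroblast line, and the labels call it a cardiomyocyte. Libraries at 10 and 30 min in the same dose of the drug are used to place each level. Treated cells had their serum-containing medium removed, were rinsed once and received the drug in fresh medium without serum. Whether the untreated cells were rinsed or changed medium is not stated in the labels, so the drug, the fresh medium and the loss of serum cannot be told apart. Each time has 1 library of poly(A) RNA, so there is no replicate to check any difference against, and no test was run. A range in brackets is a 95% counting interval, and counting error is the only error it covers. In a bulk library, fewer cells of a kind and less RNA per cell cannot be told apart.

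Doxorubicin is an anthracycline that slips between DNA base pairs and holds topoisomerase II on cut DNA, and its use in cancer is limited by damage to the heart. Broken DNA can stabilise p53, which switches on genes such as CDKN1A and MDM2 that halt the cell cycle and limit p53 itself. Cells that lose growth factors lower AKT signalling, and FOXO transcription factors then enter the nucleus and switch on genes of quiescence and of death. The kinase GCN2 and its relatives phosphorylate eIF2, which favours translation of ATF4 and so the genes of amino acid supply. Each of these programmes has a group of genes in the comparison.

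The 2 libraries were of like depth, 56875881 deposited counts at 0 min and 55156612 at 360 min. Levels are CPM, counts divided by library size and scaled by trimmed means of M values (TMM), and are not divided by gene length. Of the loci, 11741 reached 5 CPM in 1 of the 2 libraries. Their median log2 ratio of 360 over 0 min was 0.0061, the quartiles were -0.14 and 0.15, and 51.1% lay above a ratio of 1. A locus was called at 2-fold or more with an interval that excluded 1: 113 loci were higher (0.962% of those compared) and 130 lower (1.11%). By a smaller rule, a ratio of 5 to 4 or more either way with the same minimum and interval, 1045 were higher (8.9%) and 1145 lower (9.75%). These 4 percentages are the background for every count of genes below. Against the median of the 0, 10 and 30 min libraries, 62 of the 113 and 86 of the 130 also passed the 2-fold rule. The 10 min library stood apart from the others: the summed level of 45 replication genes was 3778, 1515, 3820.0 and 4319.8 CPM at 0, 10, 30 and 360 min. Where a gene shares exonic sequence with another, its counts may hold reads of that other gene and its values are uncertain. Such sharing is stated beside many of these genes but not all. All treated libraries are compared with the same 0 min library, so a value particular to that library enters each of those ratios.

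**Figure D1:**
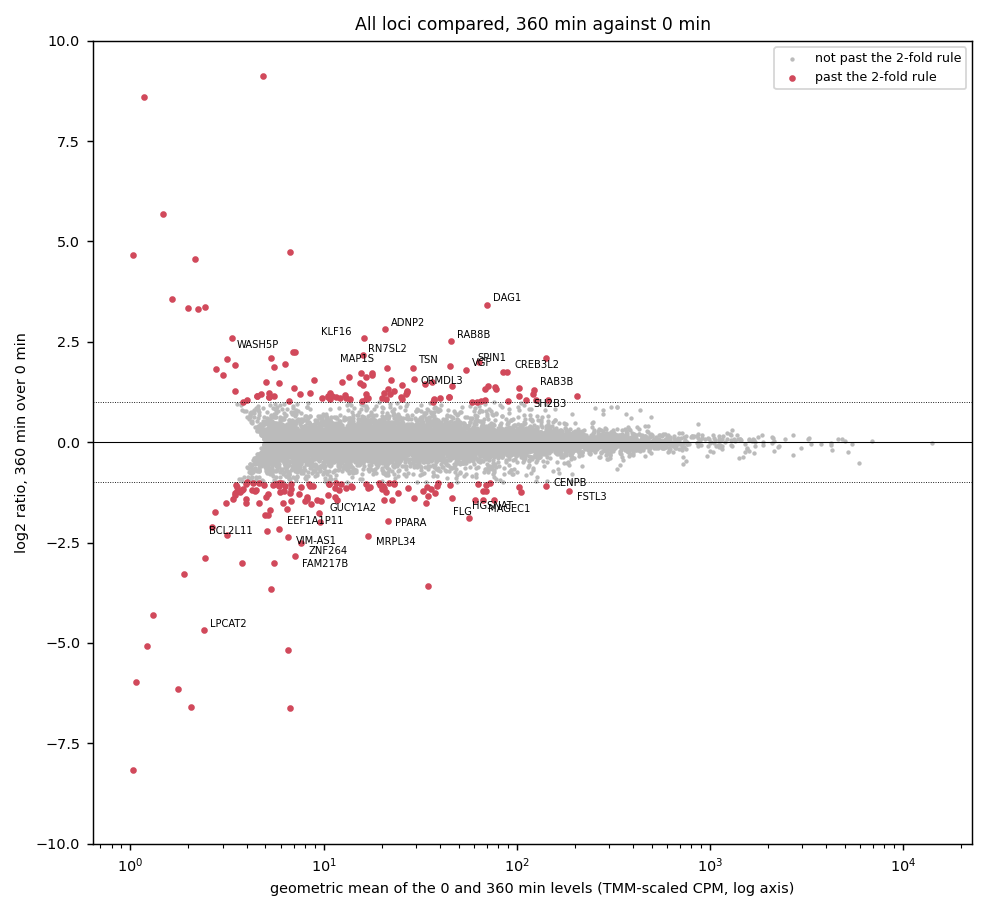
Each point is 1 of the 11741 loci compared, with the geometric mean of its 0 and 360 min levels (CPM, log axis, levels under 0.2 CPM drawn at 0.2) across and its log2 ratio up. Red points passed the 2-fold rule (113 higher, 130 lower), and dotted lines mark 2-fold in each direction; the cloud narrows with level.

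The label of cardiomyocyte was set against markers. Of 16 cardiomyocyte markers, 5 reached 5 CPM: MYL2, NPPB, NKX2-5, RYR2 and TBX5. The myosin heavy chain genes MYH6 and MYH7, the Z-disc gene ACTN2 and the natriuretic peptide gene NPPA stayed below 1 CPM in all 4 libraries. TNNT2, TNNI3, PLN and TTN had no locus of their own to read. Several fibroblast and matrix genes were high, with COL1A1 at 5662 and 4743 CPM at 0 and 360 min. Others were not: COL3A1 and THY1 stayed below 1 CPM in all 4 libraries, and POSTN, LUM and DCN were at or near 0. Of 6 immune markers CD68 had no locus to read and the other 5 stayed below 5 CPM. Among epithelium markers KRT8 and KRT18 were at 324 and 161 CPM at 0 min, while EPCAM, CDH1 and KRT19 stayed below 1 CPM. The summed level of the 11 measured matrix genes was 14972, 19174, 12577 and 12862 CPM at 0, 10, 30 and 360 min, with a median log2 ratio of -0.16. Its part in the results below was not tested.

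Genes of the drug's own targets differed little between the 2 libraries. TOP2A, topoisomerase II alpha of dividing cells (ENSG00000131747, chromosome 17, 40388516 to 40417950), was at 595, 265, 613 and 647 CPM at 0, 10, 30 and 360 min. The 0, 30 and 360 min libraries lay close together and the 10 min library was low, and the ratio of 360 over 0 min was 1.09 (1.05 to 1.12). TOP1, which relaxes DNA by single-strand cuts, had a ratio of 1.02 (0.960 to 1.09). TOP2B, the form kept in non-dividing heart cells and read here as the sum of its annotated transcripts, had 1.01 (0.957 to 1.07). Of 7 measured topoisomerase and tyrosyl-DNA phosphodiesterase genes, none passed the smaller rule in either direction, where 8.9% of all loci were higher and 9.75% lower, and the list median was -0.083. TDP1, which clears topoisomerase from broken DNA ends, had the lowest ratio, 0.872 (0.771 to 0.987). CBR1, a carbonyl reductase that turns doxorubicin into its alcohol, was at 45.8, 100.1, 96.9 and 93.4 CPM. Its 0 min level alone was low, which gave a ratio of 2.04 (1.85 to 2.24), and 18.9% of its exonic sequence is shared with the antisense gene CBR1-AS1. It was the 1 member of 6 measured efflux and reduction genes past either rule.

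The p53 target list was spread evenly about 1 at 360 min against 0 min. Of 28 measured members 14 lay above 1 and 14 below, with a median log2 ratio of 0.0075. Against the median of the 0, 10 and 30 min libraries the list median was -0.12. None passed the 2-fold rule (0.962% of all loci higher, 1.11% lower), and 4 were higher by the smaller rule, with none lower. CDKN1A, the p21 inhibitor of cyclin-dependent kinases (ENSG00000124762, chromosome 6, 36676460 to 36687339), was at 193, 261, 278 and 204 CPM. The 10 and 30 min libraries were higher than both ends, and 360 over 0 min was 1.05 (1.00001 to 1.11). MDM2, the ubiquitin ligase of p53, read as the sum of its annotated transcripts, stood at 77.0, 61.7, 114 and 82.3 CPM with a ratio of 1.07 (0.977 to 1.17).

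The 4 targets past the smaller rule were PHLDA3, PMAIP1, GADD45A and GDF15. PHLDA3, which blocks AKT at the membrane, was at 93.0, 97.5, 161 and 147 CPM. Its 30 and 360 min levels lay together above the other 2, and its ratio of 1.58 (1.48 to 1.70) was the highest of the list; 19.1% of its exonic sequence is shared with another gene on the same strand. PMAIP1, the BH3-only death gene NOXA, was 1.35-fold (1.247 to 1.45) higher, from 83.7 to 113 CPM. GADD45A, a stress sensor that acts on cell cycle kinases, stood at 61.5, 88.8, 156 and 83.1 CPM, so its 360 min level was above 0 min (1.35-fold, 1.24 to 1.48) but below 10 and 30 min. GDF15, a stress cytokine, stood at 4.51, 15.3, 15.0 and 6.503 CPM, again with 360 min between, and had a ratio of 1.44 (1.03 to 2.02). Of 29 genes of break repair and the damage checkpoint, none was lower by the smaller rule and 2 were higher, under the 8.9% background. These were PALB2, the partner of BRCA2 (1.49-fold, 1.24 to 1.78), and RBBP8, which starts resection of broken ends (1.28-fold, 1.14 to 1.42).

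Genes of DNA replication and of mitosis were slightly higher at 360 min, most in the same direction. Of 45 measured replication and nucleotide synthesis genes 38 lay above 1, with a median log2 ratio of 0.17; 10 were higher and 2 lower by the smaller rule, and 1 and 1 at 2-fold. Of 41 mitosis and kinetochore genes 39 lay above 1 (median 0.15). By the smaller rule 5 were higher, close to the background share of 8.9%, and none was lower, with none past 2-fold. Over all loci compared the median was 0.0061 and 51.1% lay above 1. Against the median of the 0, 10 and 30 min libraries the medians were 0.20 and 0.16, and with annotated transcripts summed they were 0.12 and 0.14. The summed level of the mitosis genes was 5459.7, 2414, 6065 and 6183 CPM at 0, 10, 30 and 360 min, so 30 and 360 min lay close together, a little above 0 min.

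The replication genes past the smaller rule had several roles. ORC1 and ORC6, subunits of the complex that marks origins, were 1.37-fold (1.21 to 1.56) and 1.46-fold (1.29 to 1.65) higher. GINS2 and CDC45, parts of the replicative helicase, were 1.34-fold (1.21 to 1.49) and 1.27-fold (1.12 to 1.44) higher, and RFC2 of the clamp loader 1.42-fold (1.28 to 1.58). POLA1, the catalytic subunit of the primase polymerase, stood at 43.5, 21.4, 51.4 and 55.1 CPM (1.27-fold, 1.14 to 1.41). In these 6 genes the 360 min library had the highest level of the 4. With annotated transcripts alone the log2 ratios of ORC6 and RFC2 were 0.020 and 0.074, below the rule. CCNE2, the E-type cyclin of S phase entry, was 1.48-fold (1.24 to 1.76) higher, while CCNE1 was lower at a ratio of 0.790 (0.654 to 0.954); 37.0% of the exonic sequence of CCNE2 is shared with INTS8 on the other strand.

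Several of the largest replication ratios rested on transcript models. RRM2, which encodes ribonucleotide reductase's small subunit (ENSG00000171848, chromosome 2, 10120698 to 10131419), was at 246, 60.4, 325 and 449 CPM, 1.83-fold (1.75 to 1.90) higher. Summed over its annotated transcripts alone its log2 ratio was -0.33, the opposite direction, and 20.2% of its exonic sequence is shared with a gene on its own strand. GINS4 was 2.75-fold (2.40 to 3.16) higher, with the transcript GINS4-209 at 0.284, 0.105, 0.824 and 44.9 CPM and the main transcript GINS4-201 at 17.3, 2.84, 15.1 and 4.67 CPM. The higher locus level thus came with 1 transcript counted almost only at 360 min, beside a lower main transcript. GINS4 shares 21.2% of its exonic sequence with a gene on the other strand. GINS1 stood at 57.3, 20.6, 21.99 and 20.1 CPM: only the 0 min library was high, and the ratio of 0.352 (0.305 to 0.404) came with an assembled model at 17.9 CPM at 0 min and 0.183 CPM at 360 min. Over annotated transcripts GINS1 no longer passed the 2-fold rule, at a log2 ratio of -0.84.

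In mitosis, AURKA, the kinase of spindle poles (ENSG00000087586, chromosome 20, 56369389 to 56392337), was at 96.6, 52.7, 135 and 143 CPM, 1.48-fold (1.38 to 1.59) higher. CKAP2, a spindle protein, was 1.36-fold (1.28 to 1.44) higher and KIF23, a kinesin of the midbody, 1.30-fold (1.21 to 1.39). FOXM1, the transcription factor of G2 genes, and SPC24, a kinetochore subunit, were 1.47-fold (1.39 to 1.57) and 1.76-fold (1.53 to 2.03) higher as loci. However, both had a log2 ratio of -0.06 over annotated transcripts alone. FOXM1 shares 15.9% of its exonic sequence with ITFG2 on the other strand. Among G1 genes, CCND3, a D-type cyclin, was 1.71-fold (1.51 to 1.93) higher, from 29.9 to 51.0 CPM, and the kinase gene CDK4 1.28-fold (1.19 to 1.38); CDK4 shares 43.2% of its exonic sequence with TSPAN31 on the other strand. CDKN2B, the p15 inhibitor of CDK4, was 1.48-fold (1.29 to 1.70) lower and CDKN2D, the p19 inhibitor, 1.52-fold (1.21 to 1.91) higher.

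**Figure D2:**
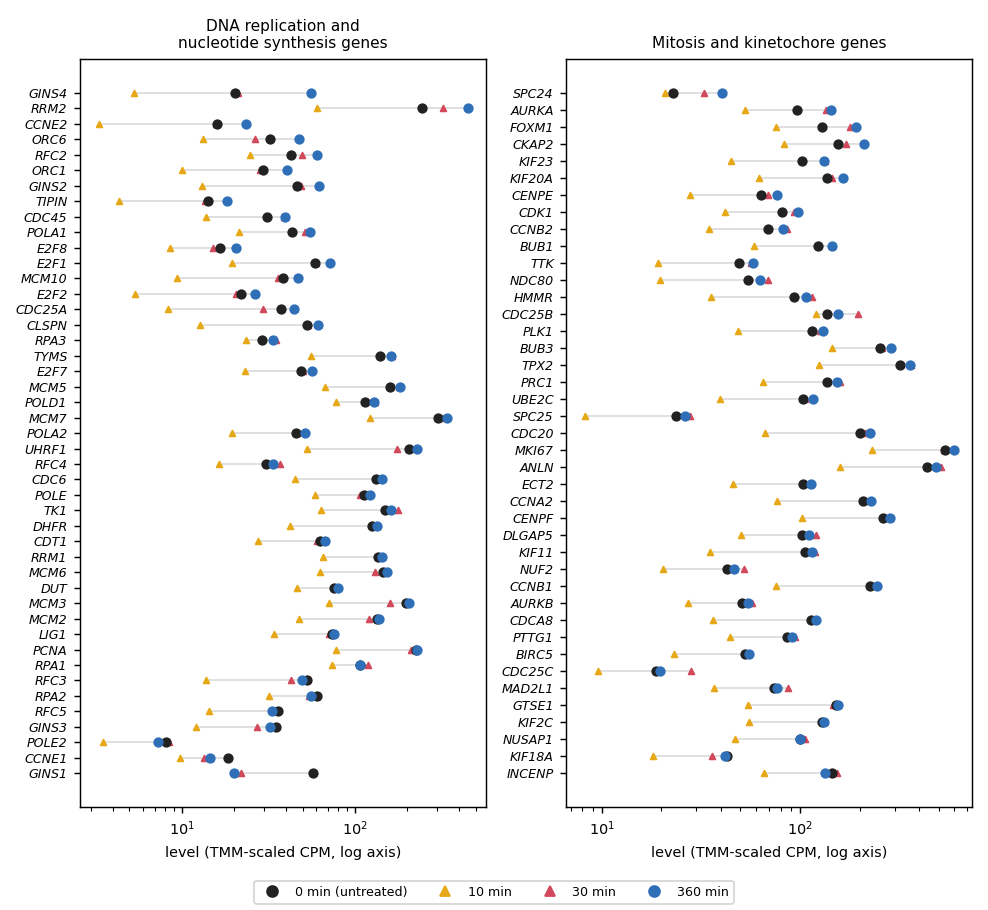
Each row is a measured replication (left) or mitosis (right) gene, with its level in CPM (log axis) in the 0 min (black circle), 10 min (yellow triangle), 30 min (red triangle) and 360 min (blue circle) libraries, ordered by the ratio of 360 over 0 min. Blue lies a little to the right of black in 38 of 45 and 39 of 41 rows, and the 10 min triangles lie well to the left of black in most rows.

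Many replication genes carry a site for E2F, the transcription factor released when cells enter S phase, and the promoters of the list's members were read for it. In 250 bases before the start of each RefSeq gene (GRCh38.p14), TTTGGCGC or TTTCCCGC was searched on both strands, with each promoter counted once. Of 27305 promoters, 1.96% held a match, against 15 of the 38 replication members with a promoter in the table (39.5%). The stretches around it are shown for the 5 of these 15 members with the highest ratios, with the match in capitals. Members not shown had lower ratios, such as PCNA at 1.01 and MCM3 at 1.04. E2F1 (1.22) lies at chr20:33686386-33686435 and E2F2 (1.20) at chr1:23531238-23531305, both on the minus strand, where the numbers in brackets are the ratios of 360 over 0 min. CDC25A (1.18) lies at chr3:48188424-48188491 and GINS2 (1.34) at chr16:85688955-85689015, also on the minus strand, and POLA1 (1.27) at chrX:24693751-24693818 on the plus strand. Of the 15 members with a match, GINS2 and POLA1 alone passed the smaller rule, close to the background of 8.9%, and RFC3 lay below 1. A match describes the letters alone and not binding.
E2F1: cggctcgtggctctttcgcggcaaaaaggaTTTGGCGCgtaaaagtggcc
E2F2: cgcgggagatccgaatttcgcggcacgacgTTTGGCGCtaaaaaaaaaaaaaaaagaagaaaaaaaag
CDC25A: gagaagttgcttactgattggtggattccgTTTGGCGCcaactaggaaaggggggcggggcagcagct
GINS2: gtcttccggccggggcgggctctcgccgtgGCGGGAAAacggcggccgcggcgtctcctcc
POLA1: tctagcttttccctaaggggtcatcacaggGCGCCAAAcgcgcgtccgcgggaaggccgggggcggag

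Genes that FOXO factors and growth factor withdrawal are known to raise were lower at 360 min. Of 16 measured members 14 lay below 1, with a median log2 ratio of -0.42. By the smaller rule 8 of 16 were lower, against 9.75% of all loci, and 2 higher, and at 2-fold 4 were lower and 1 higher. The same median against the 0, 10 and 30 min libraries was -0.40, over annotated transcripts -0.27, and among the 12 members with the same leading transcript model -0.53.

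BCL2L11, which encodes the BH3-only death protein BIM (ENSG00000153094, chromosome 2, 111119378 to 111168447), was lowest relative to 0 min. It stood at 10.9, 7.06, 10.8 and 2.36 CPM, so the 360 min library lay below all 3 others, 4.60-fold (3.13 to 6.95) lower than 0 min; 10.9% of its exonic sequence is shared with MIR4435-2HG on the other strand. TRIB2, a pseudokinase, was at 17.8, 42.2, 9.78 and 8.65 CPM, high at 10 min and lowest at 360 min (2.05-fold, 1.64 to 2.58, lower than 0 min). PIK3IP1, which restrains PI3 kinase, was at 12.2, 17.5, 9.45 and 5.86 CPM, again lowest at 360 min (2.08-fold, 1.58 to 2.74, lower). KLHL24, a ubiquitin ligase adaptor, had a ratio of 0.468 (0.334 to 0.648) and CCNG2, a cyclin of quiescent cells, 0.582 (0.490 to 0.691). Both had their highest level at 10 min and their lowest at 360 min.

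TXNIP, an arrestin that slows glucose uptake, was at 5.92, 75.6, 3.73 and 3.99 CPM. Its high level belonged to the 10 min library alone, and 360 over 0 min was 0.674 (0.470 to 0.960). FBXO32, the muscle ubiquitin ligase atrogin-1, had a ratio of 0.695 (0.657 to 0.736), but its 30 min level of 104 CPM was lower still. PDK4, which shuts pyruvate out of the mitochondrial fuel cycle, was 1.45-fold (1.24 to 1.70) lower than 0 min but above the 10 and 30 min levels. BMF, another BH3-only gene outside the list, was at 16.0, 33.6, 9.72 and 9.78 CPM (1.64-fold, 1.32 to 2.04, lower). The 2 members higher were GABARAPL1, an autophagy gene (2.13-fold, 1.79 to 2.54, with 8.05% of exonic sequence shared with its antisense gene), and CITED2, a regulator of hypoxia and FOXO signalling (1.29-fold, 1.21 to 1.39). CDKN1B, the p27 inhibitor and a textbook FOXO target, had a ratio of 0.908 (0.822 to 1.004).

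The FOXO core letters GTAAACA, searched on both strands of the same 250 bases, were present in 2.98% of all promoters and in 3 of the 15 list members with a promoter in the table. These were TXNIP, TRIB2 and BCL2L11, each lower at 360 min, and are shown because they are the members whose promoter holds the letters. TXNIP lies at chr1:145996667-145996733 on the minus strand, TRIB2 at chr2:12716686-12716723 and BCL2L11 at chr2:111120664-111120727 on the plus strand, from RefSeq on GRCh38.p14. Capitals mark GTAAACA or its reverse complement TGTTTAC. No binding was measured.
TXNIP: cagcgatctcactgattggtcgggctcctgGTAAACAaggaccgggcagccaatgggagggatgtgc
TRIB2: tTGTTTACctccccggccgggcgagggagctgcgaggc
BCL2L11: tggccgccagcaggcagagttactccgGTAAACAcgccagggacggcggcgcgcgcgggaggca

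**Figure D3:**
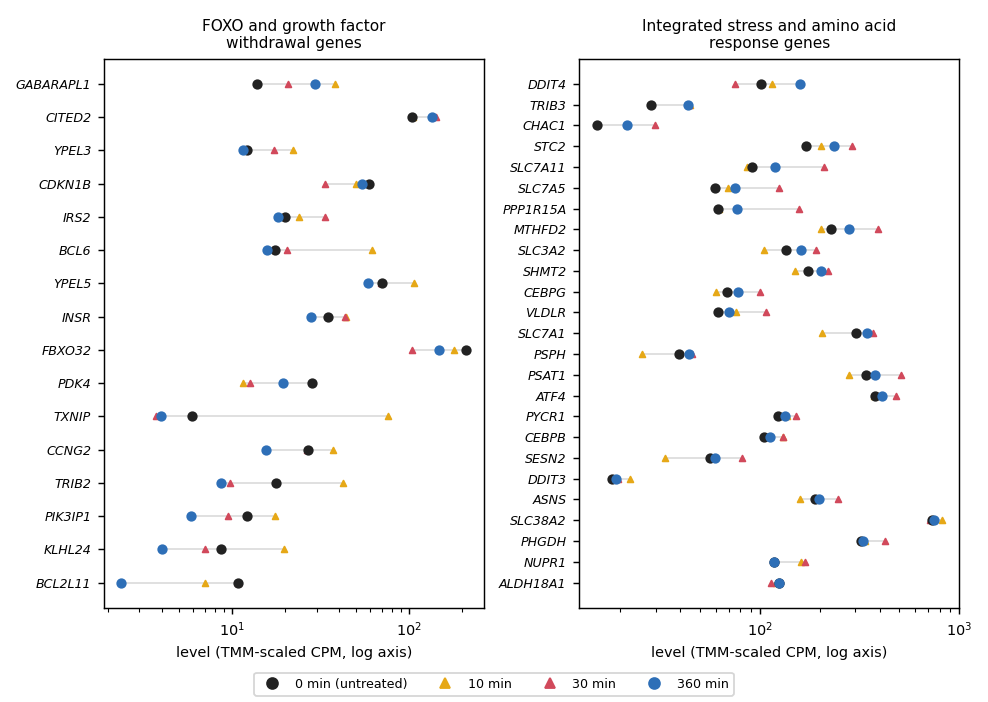
Each row is a measured FOXO and growth factor withdrawal gene (left, 16 genes) or integrated stress and amino acid gene (right, 25 genes), with its level in CPM (log axis) in the 0, 10, 30 and 360 min libraries, ordered by the ratio of 360 over 0 min. On the left blue (360 min) lies to the left of black (0 min) in 14 rows, and on the right it lies to the right of black in all 25, mostly short of the 30 min triangle.

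Genes of the integrated stress and amino acid response were higher by small amounts, and all 25 measured members had a ratio above 1. The median log2 ratio was 0.17, the range ran from 0.0088 to 0.65, and none passed 2-fold. By the smaller rule 6 were higher, against 8.9% of all loci. The summed level was 4047, 4005, 5409 and 4543 CPM at 0, 10, 30 and 360 min, so the 30 min library was highest. Against the median of the 0, 10 and 30 min libraries the list median was 0.12. DDIT4, the REDD1 inhibitor of mTORC1, was at 101, 116, 75.1 and 159 CPM, highest at 360 min and lowest at 30 min, 1.57-fold (1.47 to 1.68) above 0 min; 41.2% of its exonic sequence is shared with DDIT4-AS1. TRIB3, a pseudokinase induced through ATF4, was at 28.5, 44.6, 44.3 and 43.7 CPM, with the 3 treated libraries together above 0 min (1.53-fold, 1.35 to 1.74). CHAC1, which breaks down glutathione, was at 15.2, 21.5, 29.9 and 21.5 CPM, alike at 10 and 360 min (1.42-fold, 1.19 to 1.70).

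Among transporters and amino acid enzymes, SLC7A11, the cystine importer, was at 91.9, 86.2, 211 and 119.6 CPM (1.30-fold, 1.21 to 1.40), and SLC7A5, a leucine importer, had a ratio of 1.26 (1.15 to 1.38) as a locus and a log2 ratio of 1.20 over annotated transcripts. STC2, a secreted stress protein, was 1.40-fold (1.32 to 1.47) higher, from 169.9 to 237 CPM. MTHFD2, the mitochondrial folate enzyme, had 1.23 (1.18 to 1.29) and SHMT2, which feeds it, 1.16 (1.10 to 1.23). ATF4 itself stood at 378, 372, 482 and 410.5 CPM (1.09, 1.05 to 1.13), with ASNS at 1.04 (0.990 to 1.10) and DDIT3, the death factor CHOP, at 1.05 (0.881 to 1.254). In the separate list of 19 unfolded protein response genes only 5 lay above 1, with a median of -0.063: XBP1, a transcription factor of that response, was 1.48-fold (1.37 to 1.60) higher, and the chaperone gene HYOU1 1.31-fold (1.251 to 1.36) lower. Over annotated transcripts HYOU1 did not pass, at a log2 ratio of -0.13.

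The ATF4 response letters TGATGNAA were present in 3.19% of all promoters and in 2 of the 20 stress members with a promoter in the table (10.0%), CHAC1 and ASNS. Both are shown, with the match in capitals: CHAC1, past the smaller rule, at chr15:40953232-40953299 on the plus strand, and ASNS, with a ratio near 1, at chr7:97872439-97872506 on the minus strand (RefSeq, GRCh38.p14).
CHAC1: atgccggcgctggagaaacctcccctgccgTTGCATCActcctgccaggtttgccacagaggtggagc
ASNS: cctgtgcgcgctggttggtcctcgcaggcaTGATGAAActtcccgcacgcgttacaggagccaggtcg

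Immediate early genes, which growth factors and stress switch on within minutes, had the highest median of the lists at 360 over 0 min. Of 24 measured 17 lay above 1 (median log2 ratio 0.26), and none was higher at 2-fold. By the smaller rule 8 were higher and 1 lower, where 8.9% of all loci were higher and 9.75% lower. Against the median of the 0, 10 and 30 min libraries the median was -0.25, and with a minimum of 20 CPM against 0 min it was 0.095, so the direction of the group turned on the baseline. EGR1, a zinc finger factor, was at 6.72, 83.2, 430.2 and 9.86 CPM, far below its 30 min level and 1.47-fold (1.12 to 1.93) above 0 min. DUSP1, a MAP kinase phosphatase, was at 166, 228, 660.4 and 196 CPM (1.18, 1.12 to 1.247). KLF2 and ATF3 kept the largest excess over 0 min, at 1.95-fold (1.46 to 2.62) and 1.69-fold (1.38 to 2.08). MAFF, a small basic leucine zipper factor, was at 20.6, 15.7, 27.0 and 9.54 CPM, lowest at 360 min and 2.16-fold (1.75 to 2.68) lower than 0 min. MYC was at 28.5, 64.6, 85.2 and 37.6 CPM, 1.32-fold (1.16 to 1.51) above 0 min as a locus, and its log2 ratio over annotated transcripts alone was -0.36.

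Several feedback inhibitors of MAP kinase signalling also lay between 0 min and the earlier treated libraries. SPRY4, an inhibitor of receptor tyrosine kinases, was at 2.23, 8.21, 18.1 and 5.37 CPM, 2.40-fold (1.56 to 3.77) above 0 min. DUSP5, a nuclear ERK phosphatase, was at 19.3, 36.0, 71.1 and 29.3 CPM (1.52-fold, 1.30 to 1.78), and ERRFI1, which inhibits the EGF receptor, at 149, 325, 306 and 209 CPM (1.40-fold, 1.32 to 1.48). DUSP16, a JNK phosphatase, was 1.37-fold (1.19 to 1.57) lower. Of 14 measured members of this list 4 were higher and 2 lower by the smaller rule (8.9% and 9.75% of all loci), with a median of 0.099. Among 18 targets of SRF and YAP, 4 were higher and 1 lower: ANKRD1, a stress protein of the heart sarcomere, was at 400.0, 440.2, 964 and 616 CPM (1.54-fold, 1.49 to 1.59), while F3, CCN1 and CCN2 had ratios of 1.40, 1.37 and 1.35. All of these but F3 peaked at 30 min.

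Contractile genes of smooth muscle were lower at 360 min, 3 of the 4 measured by the smaller rule. Over annotated transcripts ACTA2 no longer passed, which leaves 2. Its log2 ratio there was -0.43, beyond the locus value of -0.36, so the size of the ratio was not what failed. The list then had 3 measured members. CNN1, calponin of smooth muscle, was at 51.6, 31.6, 62.9 and 31.4 CPM (1.65-fold, 1.46 to 1.86, lower), with 10 and 360 min alike and 0 and 30 min above them. DES, desmin, was at 23.4, 44.2, 19.99 and 16.2 CPM and ACTA2, smooth muscle actin, at 24.8, 34.0, 21.3 and 19.3 CPM. Both were lowest at 360 min (1.44-fold, 1.21 to 1.72, and 1.28-fold, 1.09 to 1.51, lower), and 17.3% of the exonic sequence of ACTA2 is shared with ACTA2-AS1. TAGLN, the remaining member, had a ratio of 0.985 (0.943 to 1.03). COL1A2, a chain of type I collagen and the 1 of 11 matrix genes past the rule, was at 878, 1308, 603 and 607 CPM, alike at 30 and 360 min and 1.45-fold (1.41 to 1.49) lower than 0 min. The heart gene NPPB, which encodes B-type natriuretic peptide, was at 37.4, 54.6, 124 and 62.1 CPM, 1.66-fold (1.49 to 1.85) higher than 0 min and below its 30 min level.

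Lists of lipid and clock genes had medians near 0 against 0 min. Against the median of the 0, 10 and 30 min libraries the clock median was -0.15, and those of fatty acid synthesis and fat oxidation were -0.070 and 0.028. In the cholesterol list of 24 measured genes 16 lay above 1, 3 were lower by the smaller rule, close to the background of 9.75%, none was higher and the median was 0.026. EBP, a sterol isomerase, was at 45.0, 46.0, 45.4 and 30.6 CPM, level in the 3 earlier libraries and 1.47-fold (1.30 to 1.67) lower, and SC5D, a sterol desaturase, was at 50.6, 36.4, 31.7 and 36.0 CPM. For SC5D the 0 min library alone was high: it was 1.41-fold (1.253 to 1.58) lower than 0 min but had a log2 ratio of -0.015 against the median of the 0, 10 and 30 min libraries. In the clock list of 14, 8 lay above 1 and 3 were lower by the smaller rule: the output factors DBP and TEF had ratios of 0.545 (0.368 to 0.798) and 0.578 (0.449 to 0.740), and the period gene PER3 0.754 (0.630 to 0.900). PER3 had a log2 ratio of -0.41 as a locus and -1.34 over annotated transcripts. PPARA, the nuclear receptor of fat oxidation (ENSG00000186951, chromosome 22, 46150521 to 46243756), was at 42.7, 18.6, 10.03 and 10.9 CPM: its 30 and 360 min levels were alike, 3.90-fold (3.26 to 4.70) below 0 min.

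Hypoxia and glycolysis genes split. Of 27 measured 20 lay above 1 (median 0.10). By the smaller rule 5 were higher and 2 lower (8.9% and 9.75% of all loci), and 2 were higher at 2-fold (0.962%). BNIP3L, a receptor for removal of mitochondria, was at 64.6, 173, 176 and 164 CPM and ENO2, an enolase, at 63.6, 249, 199 and 129 CPM. In both the 3 treated libraries lay above 0 min, with ratios at 360 min of 2.55 (2.36 to 2.75) and 2.03 (1.87 to 2.21). BNIP3L shares 7.66% of its exonic sequence with PNMA2 on the other strand. VEGFA, the vessel growth factor, was at 58.5, 97.5, 139.7 and 94.6 CPM (1.62-fold, 1.48 to 1.77). LDHA, lactate dehydrogenase, was at 1627, 1224, 1247 and 1234 CPM, lower in all 3 treated libraries (0.759, 0.744 to 0.774). The median against the 0, 10 and 30 min libraries was -0.04.

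Regulators of death lay in both directions. Of 24 measured 5 were higher and 2 lower by the smaller rule (8.9% and 9.75% of all loci). CFLAR, which encodes the caspase-8 inhibitor FLIP (ENSG00000003402, chromosome 2, 201116104 to 201176687), was at 13.4, 10.5, 21.4 and 31.3 CPM, highest at 360 min (2.34-fold, 1.97 to 2.79). Its transcript CFLAR-201 carried 5.09, 4.20, 0.110 and 19.7 CPM. BCL2L1, which encodes BCL-XL, was 1.34-fold (1.24 to 1.44) higher, and CASP6 and BID had ratios of 1.28 and 1.30. The lower members were BCL2L11 and BMF, described above.

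Of 22 measured NRF2, antioxidant and iron genes 4 were higher and 1 lower by the smaller rule, against 8.9% and 9.75% of all loci. Counts were 3 and 1 of 31 autophagy and lysosome genes, near or under those shares. For 32 proteasome genes they were 1 and 1, under those shares. In the autophagy list 21 lay below 1. SQSTM1, the autophagy receptor p62, was at 329, 387, 495 and 571 CPM, higher in each library along the course (1.73-fold, 1.67 to 1.80), with 20.7% of exonic sequence shared with MRNIP on the other strand. GPX1, a peroxidase of the cytosol, was at 211, 153, 409 and 371 CPM, with 30 and 360 min alike and 1.76-fold (1.68 to 1.84) above 0 min. KEAP1, the adaptor that marks NRF2 for destruction, was 1.32-fold (1.21 to 1.45) higher. MAP1LC3B, an autophagosome protein, was 1.59-fold (1.47 to 1.72) lower as a locus and had a log2 ratio of 0.078 over annotated transcripts. PSMD11, a subunit of the proteasome lid, was at 117, 82.9, 126 and 182 CPM, highest at 360 min (1.56-fold, 1.47 to 1.66). PSMB5, a catalytic proteasome subunit, was 1.40-fold (1.30 to 1.51) lower as a locus. Over annotated transcripts it was 2.58-fold higher (log2 ratio 1.37), the opposite direction.

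Several large groups held few called genes or none. Of 41 cytosolic ribosomal protein genes none passed the smaller rule (median -0.045, 32 below 1), and likewise none of 16 heat shock genes (median 0.062) or 10 mitochondrially encoded genes (median 0.05). Genes for ribosome biogenesis were at a median of 0.090 with NOP2 the 1 of 27 past it. NOP2 shares 54.4% of its exonic sequence with a gene on its own strand. The 10 small nucleolar RNA host genes had a median of -0.0049 with SNHG17 the 1 past the smaller rule (1.46, 1.22 to 1.76). In the respiratory chain 2 of 35 nuclear genes were lower: SDHC, a subunit of complex II (1.54-fold, 1.42 to 1.68), and NDUFA2 of complex I (1.46-fold, 1.30 to 1.65).

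**Figure D4:**
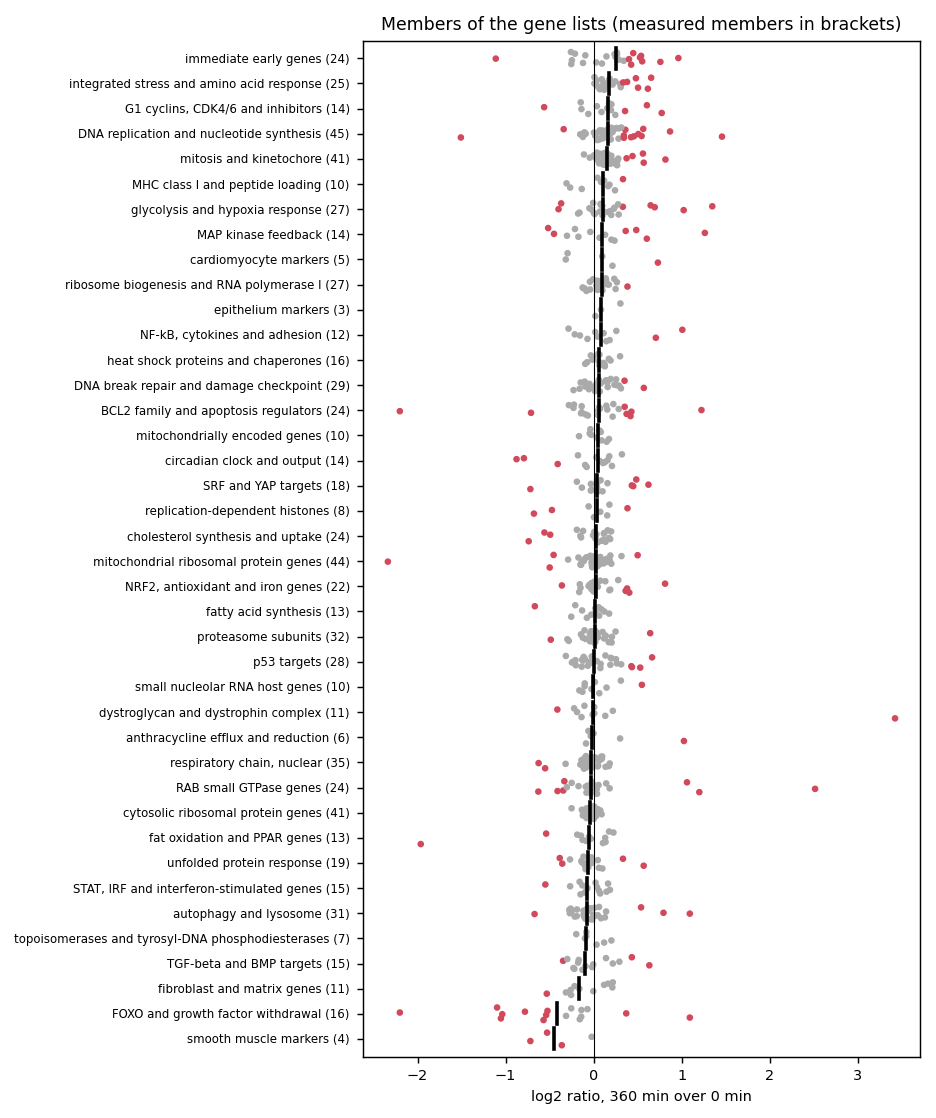
Each row is a gene list with the number of measured members in brackets, each point is a member's log2 ratio of 360 over 0 min, red points passed the smaller rule, and the black bar is the list median. The medians run from -0.45 (smooth muscle markers) and -0.42 (FOXO and growth factor withdrawal) at the bottom to 0.26 (immediate early genes) at the top; lists with fewer than 3 measured members are left out.

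Among named loci at 10 CPM or more whose annotated transcripts passed the 2-fold rule the same way, the largest increases were taken by the bound of the interval nearest to 1. DAG1, which encodes dystroglycan, the receptor that ties the cytoskeleton to the matrix (ENSG00000173402, chromosome 3, 49468703 to 49535618), led them at 21.5, 204, 51.7 and 231 CPM. The 10 and 360 min libraries were high and the other 2 low, and 360 over 0 min was 10.7-fold (9.54 to 12.1). The transcript DAG1-222 held 0.106, 74.3, 0.384 and 131 CPM of this and DAG1-201 11.6, 42.2, 19.8 and 29.4 CPM. RAB8B, a small GTPase of membrane traffic (ENSG00000166128, chromosome 15, 63189469 to 63267782), was at 19.2, 121, 98.4 and 109.7 CPM: the 3 treated libraries lay together, 5.72-fold (5.02 to 6.54) above 0 min at 360 min, and nearly all of it in the single transcript RAB8B-201. KLF16, a Krüppel-like repressor, had the same pattern at 6.60, 40.9, 45.8 and 39.7 CPM; it shares 16.3% of its exonic sequence with a gene on the other strand. CREB3L2, a membrane-bound transcription factor of the secretory pathway, was at 48.5, 155, 138 and 164 CPM (3.38-fold, 3.10 to 3.68), again with 0 min alone low.

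Other increases had varied courses. VGF, a secreted neuropeptide precursor (ENSG00000128564, chromosome 7, 101162509 to 101165593), was at 29.3, 43.4, 54.4 and 103 CPM, highest at 360 min and 3.51-fold (3.14 to 3.92) above 0 min. Its most counted model at both 0 and 360 min was an assembled one, and over annotated transcripts the VGF ratio was 2.49. SPIN1, a reader of histone methylation, was at 46.3, 21.1, 130.5 and 157 CPM (3.39-fold, 3.10 to 3.70), with its transcript SPIN1-201 at 18.4, 12.1, 10.2 and 92.1 CPM. ORMDL3, which restrains sphingolipid synthesis, was at 16.9, 15.7, 55.2 and 50.7 CPM, high at 30 and 360 min (2.99-fold, 2.58 to 3.48). TSN, which encodes the RNA-binding protein translin, was at 15.3, 8.44, 16.6 and 54.97 CPM (3.60-fold, 3.09 to 4.20). Its nonsense-mediated decay transcript TSN-208 held 0, 0, 7.12 and 34.9 CPM, while TSN-201 stayed at 6.62, 5.998, 6.11 and 7.02 CPM. ADNP2, a zinc finger gene, was at 7.87, 45.9, 12.3 and 55.3 CPM, and an assembled model held 29.1 CPM of it at 360 min and 0 at 0 min. MAP1S, a microtubule protein, was at 11.3, 58.3, 18.9 and 40.7 CPM, highest at 10 min, with MAP1S-202 at 0, 48.6, 10.5 and 33.0 CPM. RN7SL2 (4.49-fold, 3.63 to 5.60) and WASH5P (4.77-fold, 3.45 to 6.72) are members of families of near copies and are uncertain.

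**Figure D5:**
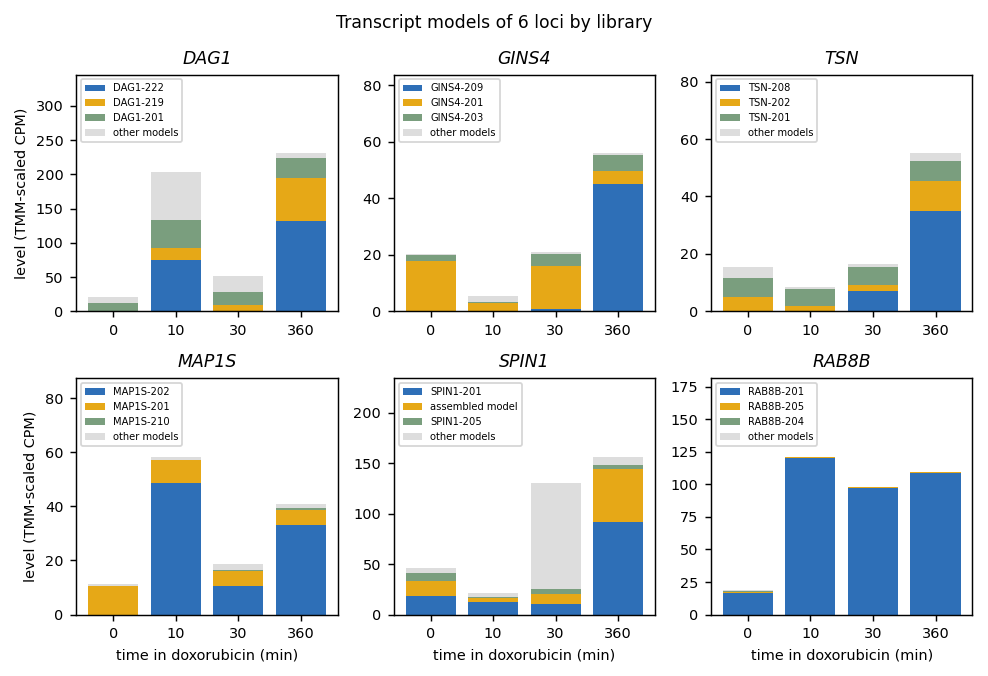
Bars show the level (CPM) of 6 loci in the 4 libraries, stacked by transcript model, with time in doxorubicin across. DAG1-222, GINS4-209, TSN-208 and MAP1S-202 are near 0 at 0 min and hold most of the locus at 360 min, whereas RAB8B is almost wholly 1 transcript throughout.

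Among the decreases, LPCAT2, an acyltransferase that makes platelet-activating factor (ENSG00000087253, chromosome 16, 55508998 to 55586670), was at 12.2, 16.4, 10.6 and 0.476 CPM. The first 3 libraries lay together, and 360 min was 25.7-fold (11.9 to 67.7) below 0 min, nearly all in its main transcript LPCAT2-201. FAM217B was at 19.1, 8.74, 15.7 and 2.66 CPM and the zinc finger gene ZNF264 at 18.3, 18.6, 14.5 and 3.22 CPM, both lowest at 360 min (7.19-fold, 5.07 to 10.5, and 5.67-fold, 4.11 to 7.997, lower). GUCY1A2, a subunit of the nitric oxide receptor, was at 19.2, 19.1, 12.03 and 4.82 CPM (3.98-fold, 3.03 to 5.29, lower). MAGEC1, a cancer testis antigen, was at 109.9, 88.1, 33.3 and 40.7 CPM, low at 30 and 360 min (2.70-fold, 2.45 to 2.98), and FLG, which encodes filaggrin, was at 99.9, 55.3, 51.3 and 36.7 CPM (2.72-fold, 2.45 to 3.02, lower). FLG was lowest at 360 min but did not pass the 2-fold rule against the median of the 0, 10 and 30 min libraries (log2 ratio -0.59), and 5.52% of its exonic sequence is shared with FLG-AS1. MRPL34, of the mitochondrial ribosome, was at 38.4, 6.63, 7.45 and 7.602 CPM, with 0 min alone high, and shares 13.2% of its exonic sequence with ABHD8 on the other strand. VIM-AS1, antisense to VIM, and EEF1A1P11, a pseudogene with near copies, were 5.11-fold (3.63 to 7.36) and 4.51-fold (3.16 to 6.58) lower and are uncertain.

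At high levels, where counting error is small, the 2 libraries were nearly alike. Of 4403 loci at 50 CPM or more in both, 91.6% lay within a ratio of 5 to 4 either way and 15 passed the 2-fold rule, 10 higher and 5 lower, 3 of them without a gene name. The genes among them that are named next were chosen after their values were seen. FSTL3, a secreted inhibitor of activin, was at 287, 244, 346 and 123 CPM, lowest at 360 min and 2.33-fold (2.21 to 2.47) below 0 min. NUDCD3, a dynein chaperone, was at 162, 140.1, 190.4 and 68.6 CPM and CCDC85C at 152, 123, 178 and 70.3 CPM, and both were likewise lowest at 360 min (2.36 and 2.16-fold). Over annotated transcripts NUDCD3 had a log2 ratio of -0.89 and did not pass the 2-fold rule. HGSNAT, a lysosomal acetyltransferase, was at 104, 102, 87.3 and 50.9 CPM (2.04-fold, 1.86 to 2.23, lower), and CENPB, a centromere protein, at 207, 146, 91.0 and 97.8 CPM, low at 30 and 360 min. RAB31, an endosomal GTPase, was at 101, 56.98, 222 and 210.5 CPM (2.09-fold, 1.96 to 2.22), with 30 and 360 min alike. RAB3B, a secretory GTPase, and LPCAT1, an acyltransferase, were at 79.8, 258, 190.0 and 184 CPM and 88.0, 284, 185 and 182 CPM, with 0 min alone low. SH2B3, an adaptor that damps cytokine signalling, was at 77.9, 77.3, 82.2 and 161 CPM as a locus, but its log2 ratio over annotated transcripts was -0.23, so the higher count sat in assembled models.

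Among loci whose total hardly moved, the transcript that carried the counts often did. Of 7436 named loci within a ratio of 5 to 4 either way and at 10 CPM or more in both libraries, 1634 (21.97%) had an annotated transcript whose share of the locus moved by 20 percentage points or more, and 423 by 50 or more. LNPK, a protein of endoplasmic reticulum junctions, had 96.9% (95.5 to 98.0) of its counts in LNPK-201 at 0 min and 0.0300% (0.503% at most) at 360 min, with 93.7% and 97.0% at 10 and 30 min. For LRIG1, a brake on growth factor receptors, LRIG1-201 went from 98.4% (97.3 to 99.1) to 0.268% (0.0324 to 0.963). PRKCA, a protein kinase C, went the other way: PRKCA-202 held 1.59% (1.22 to 2.03) at 0 min and 99.4% (99.1 to 99.7) at 360 min. In NDUFS6 of complex I, NDUFS6-201 went from 98.8% (97.8 to 99.4) to 1.73% (0.939 to 2.92). FANCM-201 and RFX1-201 held 98.1% and 96.4% of their loci at 0 min. At 360 min they held 0% (0 to 1.84) and 0% (0 to 2.07), and they were already low at 30 min, at 6.63% and 0.132%.

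These shares depend on how reads were divided among overlapping models. With annotated transcripts alone in the denominator, the change for NDUFS6-201 was -30.5 points in place of -97.1. The leading model differed between the 2 libraries in 21.9% of the named loci compared, and in 79 of the 202 named loci past the 2-fold rule (39.1%).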

How the data were processed

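Poly(A) RNA of AC16 cells was sequenced at 0, 10, 30 and 360 min in 10 nM doxorubicin, 1 library a time. The tools named are HISAT2 and DESeq2 and the build GRCh38, per the submitters' processing notes. The counting tool, the annotation release and any use of strand were not given in the sources used here. Estimated counts were deposited by the authors per locus (66839) and transcript (230349), as unscaled whole numbers with no length correction. Assembly loci hold 99.7% of counts and assembled models 11.1%.

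A locus was named after a gene where, once assembled models were subtracted, its counts equalled the summed annotated transcripts of that gene in GENCODE 29 (15289 loci), or of a run of up to 6 neighbours in which it held 95% (699 loci). Named loci hold 87.4% of counts. Low values piled up at multiples of 4 (31.5% against 25% under even spacing) and also at 2, so these values leave unsettled what 1 read pair adds. A pair was taken as 4 counts, which widens intervals, for intervals and for a floor of 3 pairs (12 counts) where a library was at 0. The libraries hold 55156612 to 56875881 counts. No molecular identifiers are recorded, so intervals cover counting error only.

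Counts were scaled with TMM factors (0.991, 1.03, 0.988 and 0.990) from edgeR 4.0.16 in R 4.3.3, which was used for scaling alone. Ratios have exact (Clopper-Pearson, conditional binomial) 95% intervals from SciPy 1.17.1, and shares have exact (Clopper-Pearson) intervals. The larger rule was 2-fold and the smaller a ratio of 5 to 4, both with an interval that excludes 1 and a minimum of 5 CPM in either library. Neither edgeR's nor DESeq2's test was run, since 1 library a side leaves no spread to estimate. The ratio script was tested on simulated data. Promoters come from RefSeq on GRCh38.p14. Scripts ran under Python 3.11.15 with pandas 2.3.3, and matplotlib 3.10.9 drew the plots.

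The comparison and its 42 gene lists were chosen with earlier results of these data known, and a list's measured members are those at 5 CPM in 1 of the 2 libraries (769 of 955 genes). Named genes are up to 10 increases and 10 decreases past 2-fold with 10 CPM and annotated transcripts past the rule the same way, up to 8 each way that also pass against the median of the 0, 10 and 30 min libraries, up to 4 members a list past the smaller rule, 8 fixed genes, and 8 loci with the largest change in a transcript's share. Other list members are named to describe their lists, and some genes these rules name are not reported here. Alternatives tried were total counts, DESeq2 1.42.0 size factors, annotated transcripts, that median baseline, no minimum, 20 CPM, undivided counts, members with the same leading model, and shares over annotated transcripts.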

Additional observations from a re-analysis of the deposited data

How the results depend on the processing

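Scaling by total counts or by DESeq2 size factors shifted the median log2 ratio of all loci by -0.0023 and 0.012, and all 112 named genes kept their direction and side of the rule. Summing annotated transcripts gave 388 loci higher and 402 lower at 2-fold. Without a minimum level there were 820 higher and 938 lower at 2-fold and 1956 and 2226 by the smaller rule, and at 20 CPM 67 and 48, and 675 and 593; more or fewer loci are compared by construction. Undivided counts gave 113 and 130 at 2-fold.

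Under annotated transcripts 6 named genes turned over, to log2 ratios of -0.33 (RRM2), -0.36 (MYC), -0.064 (SPC24), -0.061 (FOXM1), 1.37 (PSMB5) and 0.078 (MAP1LC3B). A further 3 no longer passed the rule they had passed: ACTA2 -0.43, GINS1 -0.84 and HYOU1 -0.13. For ACTA2 the ratio itself was not nearer to 1 than as a locus (log2 ratio -0.36). Against the median of the 0, 10 and 30 min libraries 18 turned over: KLF16 -0.043, MRPL34 0.029, GDF15 -1.21, MYC -0.78, CBR1 -0.053, GADD45A -0.095, CCN1 -0.40, DUSP5 -0.30, ERRFI1 -0.55, F3 -0.037, PDK4 0.61, ENO2 -0.63, VEGFA -0.042, BNIP3L -0.075, CA9 -0.20, TRIB3 -0.019, MRPS35 0.31 and RAB3B -0.050; 19 more no longer passed. List medians that moved under that baseline were topoisomerases 0.12, immediate early -0.25, MAP kinase feedback -0.27, glycolysis and hypoxia -0.042, MHC class I -0.025, TGF-beta and BMP 0.046 and ribosome biogenesis 0.38, and at 20 CPM the immediate early median was 0.095. The other 33 list medians moved by less than the median width, to 1 side, of their members' counting intervals. Some of these still changed sign between the 0 min baseline and the median of the 0, 10 and 30 min libraries. Their medians were 0.0075 and -0.12 for p53 targets, 0.051 and -0.15 for clock genes, and 0.098 and -0.055 for cardiomyocyte markers. Apart from the number of loci compared, the cause was not tested. With 1 library a time, no library could be left out and no spread between libraries is known.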

Other observations

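Genes of membrane traffic and the kinds of RNA gave values that belong to no group above. Of 24 measured RAB GTPase genes 3 were higher at 2-fold (RAB8B, RAB3B and RAB31, given above), against 0.962% of all loci. By the smaller rule 4 were lower, against 9.75%. RAB5A, the GTPase of early endosomes, was at 50.9, 51.2, 49.0 and 32.9 CPM at 0, 10, 30 and 360 min, level in the first 3 libraries and 1.55-fold (1.37 to 1.74) lower at 360 min. RAB6A, of the Golgi, had a ratio of 0.787 (0.730 to 0.849) and RAB35, of recycling endosomes, 0.794 (0.728 to 0.865). RAB5B was lower as a locus (0.753, 0.622 to 0.909) and had a log2 ratio of 0.71 over annotated transcripts. RELB, a subunit of the noncanonical NF-kB factor, was at 18.1, 14.3, 17.8 and 29.6 CPM, highest at 360 min (1.63-fold, 1.39 to 1.92), and the adhesion gene ICAM1 at 2.70, 8.16, 4.27 and 5.42 CPM, with 0 min lowest (2.01-fold, 1.34 to 3.06).

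Among mitochondrial ribosomal protein genes (44 measured, median log2 ratio 0.023), MRPS34 was 1.41-fold (1.31 to 1.53) higher and MRPL1 1.41-fold (1.20 to 1.67) lower. Of 8 measured histone genes 1 was higher, H2AZ1, whose variant histone is also made outside S phase (1.31-fold, 1.26 to 1.35), and 2 lower, H2AC6 (0.625, 0.466 to 0.833) and H2BC21 (0.720, 0.528 to 0.978). OAS1, an interferon-induced enzyme, was the 1 of 15 interferon and STAT list genes past the smaller rule (1.46-fold, 1.15 to 1.86, lower). In 9713 protein-coding loci the median log2 ratio was 0.0087, in 167 lincRNA loci -0.038 and in 153 antisense loci -0.075. Among antisense loci 31 were lower and 17 higher by the smaller rule.

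Gene span, the genomic length from start to end, went with a small difference. Protein-coding genes were cut into 5 groups of like size by span, and the median log2 ratios from the shortest to the longest group were 0.0064, 0.023, 0.016, 0.020 and -0.023. In the longest group, of 102 to 2305 kb, 10.8% of 1943 genes were lower and 6.59% higher by the smaller rule. In the shortest group, up to 11.7 kb, 9.31% of 1944 were lower and 9.16% higher. The median of the longest group minus that of the shortest was -0.029, and -0.016 over annotated transcripts.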
